A study of Mus musculus with 12 samples.

Results

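The genes described here serve MHC class I antigen presentation in the mouse spleen: the classical heavy chains H2-D1 and H2-K1, their light chain B2m, the peptide loading genes Tap1, Tap2 and Tapbp, the immunoproteasome subunits Psmb8, Psmb9 and Psmb10, and the regulator Nlrc5. They are 10 of the 19057 genes named on the array and were chosen by their gene symbols, not by their values. All 10 were measured, by 20 of the 45281 probes, and each gene is given by the probe with the highest mean over the 12 mice unless another probe is named. Spleen RNA was taken from male C57Bl/6J mice on 1 of 3 diets, 4 mice per diet and 1 array per mouse. HFD-ED was a high fat diet with 3% corn oil and 2% triglycerides of the n-3 fatty acids EPA and DHA. HFD-CO was the same high fat diet with 5% corn oil, and both supplied 32% of energy as fat. The control was a low fat diet with 12% of energy as fat. The mice were bought at 6 weeks of age, kept for 3 weeks on control chow and then fed their diet for 8 weeks. The 4 mice of a diet were separate animals that the study picked from larger groups by body weight, plasma triglycerides and plasma cholesterol, so they were not a random sample of the diet group.

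MHC class I molecules show peptides from inside the cell to CD8+ T cells and serve as ligands for receptors of natural killer (NK) cells. Proteasomes cut proteins into peptides, the transporter made of Tap1 and Tap2 moves the peptides into the endoplasmic reticulum, and tapasin (Tapbp) holds an empty class I molecule, a heavy chain with B2m, close to that transporter. Lymphocytes and dendritic cells carry immunoproteasomes, in which Psmb8, Psmb9 and Psmb10 take the places of Psmb5, Psmb6 and Psmb7, and interferon-gamma raises most genes of this pathway. Nlrc5 is a transactivator that acts on class I promoters together with proteins bound to short X and Y boxes.

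Values are normalized levels on a log2 scale, on which the whole array ran between 6.95 and 14.793 with a median of 7.13. In all, 75.2% of the probes had a mean under 7.5, close to the lower end, where differences are compressed. Arrays of the same diet correlated at r between 0.971 and 0.995. Over all probes, limma called 0 probes between HFD-ED and control, 0 between HFD-CO and control and 1 between HFD-ED and HFD-CO at an adjusted p under 0.05, while 4620, 2072 and 4211 probes had an unadjusted p under 0.05. The labels give the tissue as spleen although their extraction text names skeletal muscle. Lymphocyte markers such as Cd79b (mean 12.72) and Cd3d (10.56) were bright, whereas 8 of the 9 skeletal muscle markers measured had means under 7.5, among them Ckm (7.04) and Acta1 (7.10). HFD-CO replicates 4 and 1 carried pancreatic acinar transcripts, with the list 4.75 and 1.02 log2 units above its 12-mouse mean, against -0.73 to -0.11 in the other mice. HFD-ED replicate 3 stood apart from the other mice in the genes described here, and for the differences it moved most, values without it are given.

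To show some of the elements through which class I genes are known to be controlled, upstream stretches of the members are printed from RefSeq (build GRCm38.p6), which held a promoter entry for 8 of the 10 members, all but Tap2 and Nlrc5. An entry covers 300 bases, 250 before and 50 after the transcript start that the entry uses; for H2-K1 both such starts lie inside the gene interval given further on, so its stretch is upstream of those starts and not of the outermost end of the gene. In H2-D1 (chr17:35262914-35263093, plus strand, the 180 bases before that start) and in H2-K1 (chr17:34000334-34000513, minus strand, the 180 bases before the start of the first of its 2 entries), capitals mark, in order, the kappa B letters GGGATTCC, the CRE core TGACG that forms part of the X box region, and the CCAAT box read on both strands as ATTGG and CCAAT. In B2m (chr2:122147507-122147686, plus strand), they mark the interferon element core GAAANNGAA, TGACG and ATTGG. Only the letter strings named here and below were searched. Stretches without capitals, in the heavy chain genes too, may hold interferon elements spelled in other letters.
H2-D1: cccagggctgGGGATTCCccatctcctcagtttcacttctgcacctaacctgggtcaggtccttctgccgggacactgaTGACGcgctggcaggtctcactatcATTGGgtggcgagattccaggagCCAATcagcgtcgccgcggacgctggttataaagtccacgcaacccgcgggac
H2-K1: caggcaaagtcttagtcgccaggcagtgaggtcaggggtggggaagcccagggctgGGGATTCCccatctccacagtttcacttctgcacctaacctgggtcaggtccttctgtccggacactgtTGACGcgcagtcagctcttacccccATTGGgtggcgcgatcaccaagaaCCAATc
B2m: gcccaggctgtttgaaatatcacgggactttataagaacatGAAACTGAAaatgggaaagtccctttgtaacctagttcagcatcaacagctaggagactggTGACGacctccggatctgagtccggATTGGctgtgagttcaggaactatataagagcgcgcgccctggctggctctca
In all 3 promoters the first base of ATTGG lay 25 bases after the first base of TGACG, and in both heavy chain genes TGACG lay 69 bases after GGGATTCC. The H2-D1 and H2-K1 windows shared 225 of 253 aligned bases (88.9%). Of all 32851 promoters, counted on both strands, 20.8% held TGACG, 37.4% held CCAAT, 1.06% held GGGATTCC and 8.56% held GAAANNGAA. TGACG followed by ATTGG at that spacing, a pattern chosen after the members had been seen, occurred in 31 promoters (0.094%) of 27 genes, with the class I gene H2-M3 among them. The palindromic CRE TGACGTCA was in 1.79% of promoters and in none of the members' windows. The interferon-gamma element TTCNNNGAA was in 8.3% of promoters and, among the members, only in Psmb8, with its first base at position -97 from the start. Such matches describe letters and are no evidence of binding.

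Tap1 and Psmb9 start on opposite strands with 225 bases between them, so they are shown by the stretch they share (chr17:34187331-34187555, on the strand of Tap1, with Psmb9 running away to the left). Capitals mark a CCAAT next to Psmb9 and a TGACG nearer to Tap1.
Psmb9 to Tap1: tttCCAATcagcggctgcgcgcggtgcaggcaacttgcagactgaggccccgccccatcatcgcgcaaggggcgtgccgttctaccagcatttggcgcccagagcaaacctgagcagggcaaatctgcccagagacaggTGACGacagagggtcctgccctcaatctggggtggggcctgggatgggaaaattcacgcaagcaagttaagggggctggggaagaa
On mouse chromosome 17 (GRCm38.p6) the Psmb9, Tap1, Psmb8 and Tap2 genes follow each other between 34182030 and 34216321, with H2-K1 (33996012 to 34000619), Tapbp (33919478 to 33929290) and H2-D1 (35263094 to 35267497) on the same chromosome. B2m is on chromosome 2 (122147687 to 122153082), and Psmb10 (105935728 to 105938392) and Nlrc5 (94434335 to 94527272) are on chromosome 8.

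Across the 3 diets, the mean of HFD-ED fed mice was the lowest for 8 of the 10 genes, and the spread between mice was also widest in HFD-ED for 8 of the 10. HFD-ED was lower than control in 9 of the 10 genes, with a median difference of -0.18 log2 units, beside -0.03 over the 11242 probes with a mean of at least 7.5, of which 58.8% were lower. HFD-ED was lower than HFD-CO in 9 of the 10 genes as well, with a median difference of -0.19 beside -0.03 (57.9% lower). These comparisons share the HFD-ED mice. HFD-CO against control gave 6 lower and 4 higher genes and a median of -0.03 (-0.01 over the same probes, 52.7% lower). No member passed an adjusted p of 0.05 in any comparison (limma, Benjamini-Hochberg over all probes), where the share of all probes called was 0% when HFD-ED was set against control, 0% when HFD-CO was set against it, and 0.00221% between the high fat diets. At an unadjusted p under 0.05, H2-D1 and Nlrc5 were lower in HFD-ED than in control, 2 of 10 genes against 13.8% of the probes with a mean of at least 7.5. Between HFD-ED and HFD-CO, H2-D1, Psmb8 and Nlrc5 were lower, 3 of 10 genes against 10.4% of these probes. Between HFD-CO and control it was 0 of 10 genes against 3.82%. By the brightest probe of each gene, the mice of the diets overlapped in every member. Of the probes with a mean of at least 7.5, 5.6% lay wholly below control in HFD-ED and 2.07% wholly below control in HFD-CO. Wholly below HFD-CO in HFD-ED lay 3.96%. Further probes of H2-D1, B2m and Tapbp did separate HFD-ED from another diet and are given with their genes. The shift rested in large part on 1 mouse: without HFD-ED replicate 3 the median difference from control became -0.05 and that from HFD-CO became -0.09, and leaving out HFD-ED replicate 1 instead gave -0.27 and -0.25.

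**Figure D1:**
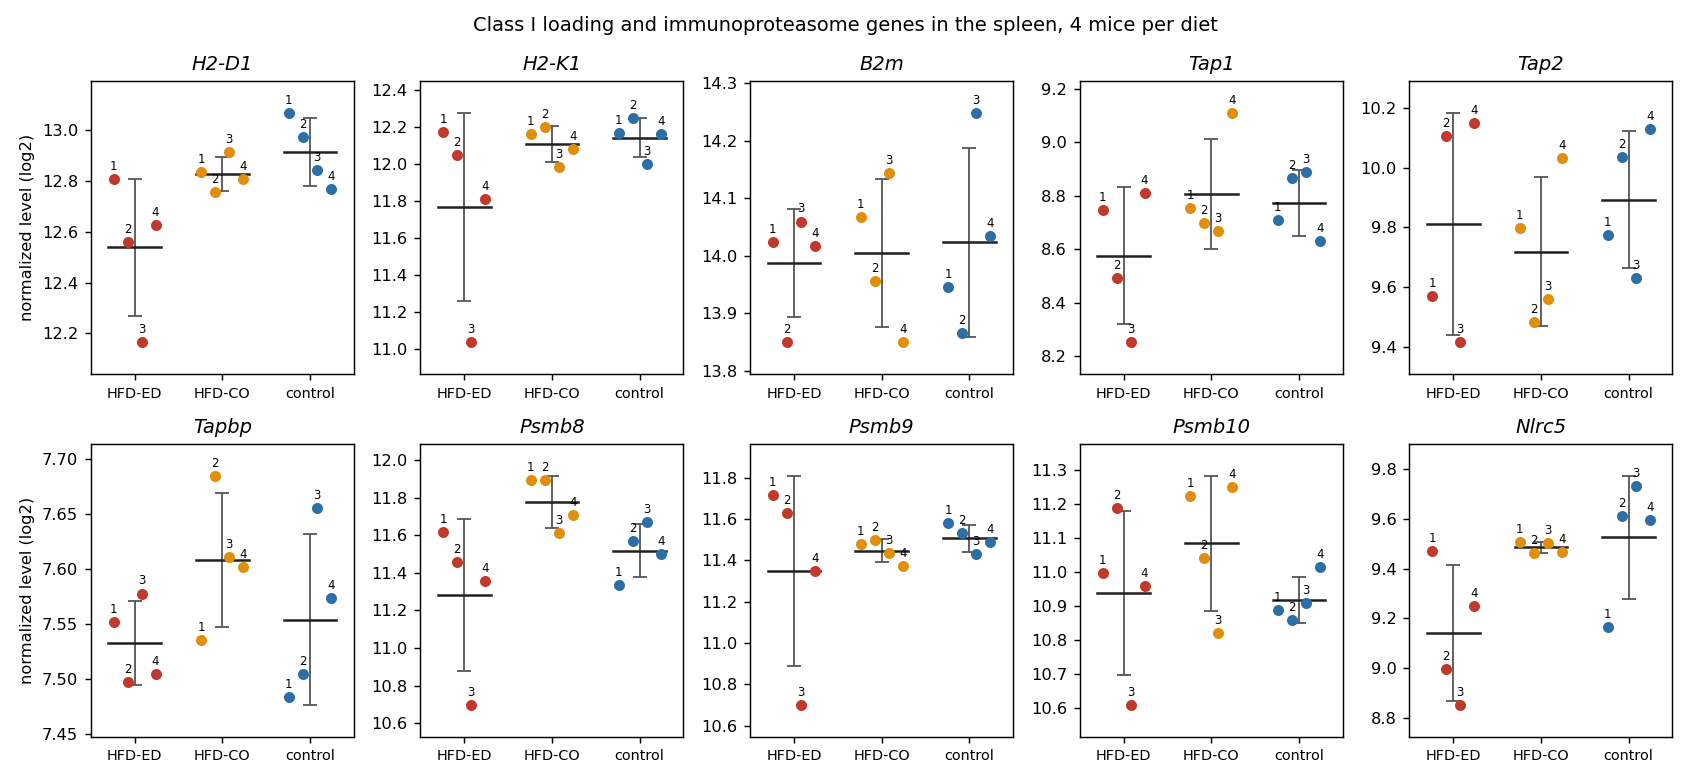
Normalized log2 level (vertical axis, own range per panel, not starting at 0) of each of the 10 genes in HFD-ED, HFD-CO and control fed mice; points are mice numbered by replicate, the line is the mean and the bar the SD (n = 4 each). HFD-ED replicate 3 is the lowest of the 12 mice in 8 panels, all but B2m and Tapbp.

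**Figure D2:**
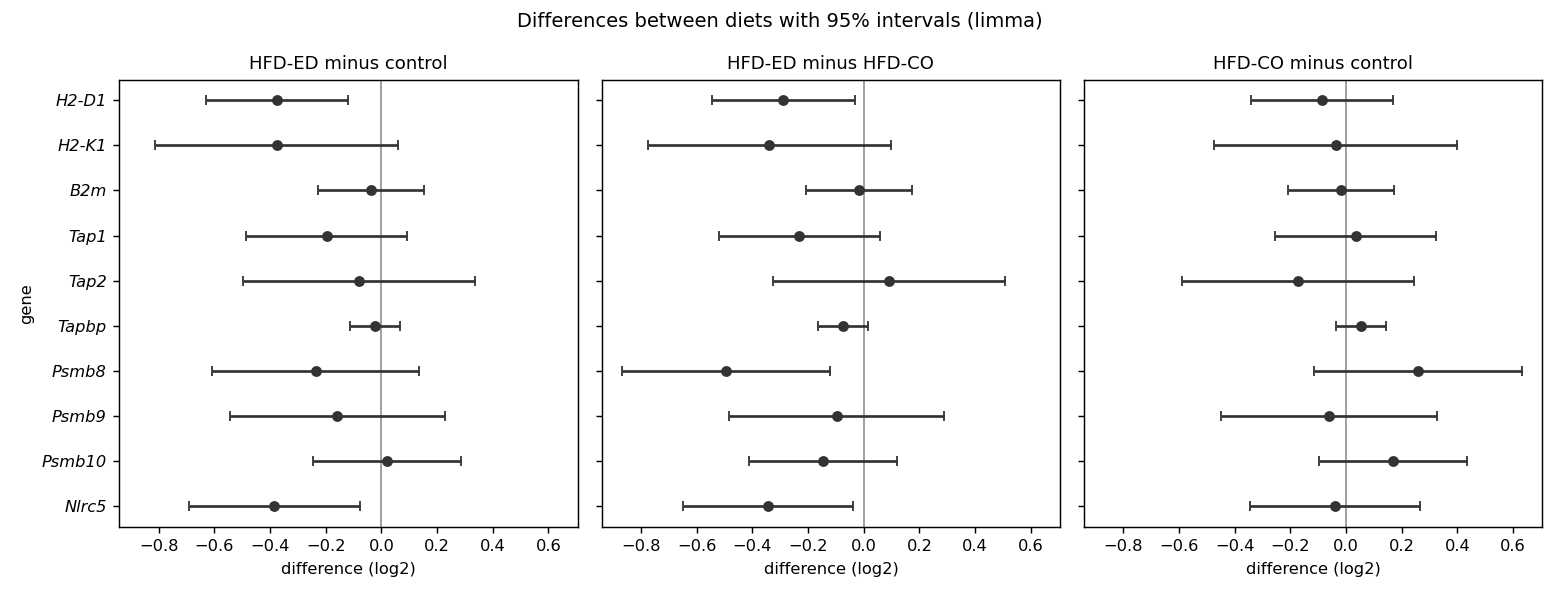
Differences between diet means on the log2 scale (horizontal axis) for the 10 genes, with 95% intervals from limma that are not adjusted for the number of probes. The intervals of H2-D1 and Nlrc5 lie below 0 in HFD-ED minus control, those of H2-D1, Psmb8 and Nlrc5 in HFD-ED minus HFD-CO, and none excludes 0 in HFD-CO minus control.

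H2-D1 and H2-K1 encode the heavy chains that hold the peptide. H2-D1 measured 12.81, 12.56, 12.17 and 12.63 in the 4 HFD-ED mice, 12.83, 12.76, 12.91 and 12.81 in the HFD-CO mice, and 13.07, 12.98, 12.84 and 12.77 in the controls. HFD-ED replicates 2, 3 and 4 lay below all 8 mice of the other diets, and replicate 1 lay among them. The difference was -0.37 ± 0.12 (SE) against control (95% interval -0.63 to -0.12, limma adjusted p = 0.344) and -0.29 ± 0.12 against HFD-CO (adjusted p = 0.499). HFD-CO and control differed by -0.09, with an interval of -0.34 to 0.17. Without HFD-ED replicate 3, the H2-D1 differences were -0.25 from control and -0.16 from HFD-CO. Another bright H2-D1 probe (mean 12.30) gave -0.35 against control with no overlap between these 2 diets. Of the probes with a mean of at least 7.5, 5.6% lay wholly below control in HFD-ED. A dimmer H2-D1 probe (9.37) gave -0.37, and one at the lower end of the scale (7.12) gave -0.01.

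H2-K1 was 12.17, 12.05, 11.04 and 11.81 in HFD-ED mice, 12.16, 12.20, 11.98 and 12.08 in HFD-CO mice, and 12.17, 12.25, 11.998 and 12.16 in controls. Only HFD-ED replicates 3 and 4 lay below the other diets, and replicate 3 was 0.97 below the 12-mouse mean. The difference from control was -0.38 ± 0.20 (SE, adjusted p = 0.558 by limma) and that from HFD-CO -0.34 ± 0.20 (adjusted p = 0.645). Without HFD-ED replicate 3 the differences were -0.13 and -0.10. Both dimmer H2-K1 probes were also lower in HFD-ED than in control, by -0.14 (mean level 8.11) and -0.13 (7.69). Class I heavy chains are close in sequence, so a probe may also bind transcripts of another class I gene, and the probe sequences were not analysed here.

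B2m, which pairs with every class I heavy chain, was among the brightest probes of each array, at ranks 51 to 98 of 45281. It measured 14.02, 13.85, 14.06 and 14.02 in HFD-ED mice, 14.07, 13.96, 14.14 and 13.85 in HFD-CO mice, and 13.95, 13.87, 14.25 and 14.03 in controls. The diets overlapped throughout. The difference from control was -0.04 for HFD-ED (interval -0.23 to 0.15) and -0.02 for HFD-CO (-0.21 to 0.17). A second bright B2m probe (mean 13.82) did not give the same picture, and it correlated with the first at only r = 0.201 over the 12 mice. It read 13.71, 13.74, 13.63 and 13.68 in HFD-ED mice, 13.86, 14.07, 14.10 and 13.86 in HFD-CO mice, and 13.72, 13.74, 13.82 and 13.87 in controls. By this probe all 4 HFD-ED mice lay below all 4 HFD-CO mice, as in 3.96% of the probes with a mean of at least 7.5. The difference was -0.28 ± 0.06 (SE, interval -0.41 to -0.15, limma adjusted p = 0.337), and HFD-CO was 0.18 above control (adjusted p = 1.0). Whether HFD-CO lay above or below control thus depended on the B2m probe, and the remaining probe (mean 7.05) was at the lower end of the scale.

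Tap1 and Tap2 form the peptide transporter. Tap1 was 8.75, 8.49, 8.25 and 8.81 in HFD-ED mice, 8.75, 8.70, 8.67 and 9.11 in HFD-CO mice, and 8.71, 8.87, 8.89 and 8.63 in controls. HFD-ED replicates 2 and 3 were the lowest of the 12 mice and replicates 1 and 4 lay inside the range of the other diets. The differences were -0.20 against control (interval -0.49 to 0.09, adjusted p = 0.669, limma) and -0.23 against HFD-CO (-0.52 to 0.06, adjusted p = 0.635). When HFD-ED replicate 3 was left out, the Tap1 difference from control was -0.09 and that from HFD-CO -0.12, and without HFD-CO replicate 4 the difference between the high fat diets was -0.13.

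Tap2 did not follow its partner. Its levels were 9.57, 10.11, 9.42 and 10.15 in HFD-ED mice, 9.80, 9.48, 9.56 and 10.03 in HFD-CO mice, and 9.77, 10.04, 9.63 and 10.13 in controls. HFD-ED held both the highest and the lowest mouse, and Tap2 was the only member with its lowest mean in HFD-CO. HFD-ED differed from control by -0.08 (interval -0.50 to 0.33) and from HFD-CO by 0.09 (-0.32 to 0.51).

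Tapbp, the tapasin that bridges the transporter and the empty class I molecule, was read near the lower end of the scale. It ranged from 7.497 to 7.58 in HFD-ED mice, from 7.54 to 7.69 in HFD-CO mice and from 7.48 to 7.66 in controls, and the diets overlapped. HFD-ED differed by -0.02 from control and by -0.08 from HFD-CO, and at this level the array says little about its size. The other Tapbp probe (mean 7.18) was dimmer still and went the other way. By it HFD-ED was 0.05 above control with no overlap (7.19 to 7.21 against 7.12 to 7.17) and 0.01 above HFD-CO. The share of all probes lying wholly above control was not counted.

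Psmb8, also called LMP7, is the immunoproteasome subunit with chymotrypsin-like activity. It measured 11.62, 11.46, 10.70 and 11.36 in HFD-ED mice, 11.89, 11.89, 11.61 and 11.71 in HFD-CO mice, and 11.33, 11.57, 11.67 and 11.50 in controls. HFD-CO had the highest mean and HFD-ED the lowest, and only HFD-ED replicate 1 reached the lowest HFD-CO mouse. The difference between HFD-ED and HFD-CO, -0.49 ± 0.17 (SE, interval -0.87 to -0.12, limma adjusted p = 0.468), was the widest of any member in the 3 comparisons. Without HFD-ED replicate 3 it was -0.30. Against control, HFD-ED differed by -0.24 (-0.61 to 0.14), which became -0.04 without that mouse, and HFD-CO by 0.26 (-0.11 to 0.63). A dimmer Psmb8 probe (mean 8.57, r = 0.882 with the first) gave -0.25 between HFD-ED and HFD-CO.

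Psmb9, also called LMP2, was 11.72, 11.63, 10.70 and 11.35 in HFD-ED mice, 11.48, 11.50, 11.44 and 11.37 in HFD-CO mice, and 11.58, 11.53, 11.43 and 11.49 in controls. The other diets kept within narrow ranges, and HFD-ED held the 2 highest mice and the 2 lowest. Its differences of -0.16 from control (interval -0.54 to 0.23) and -0.10 from HFD-CO (-0.48 to 0.29) changed sign to 0.06 and 0.12 without replicate 3.

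Psmb10, also called MECL-1, measured 10.998, 11.19, 10.61 and 10.96 in HFD-ED mice, 11.23, 11.04, 10.82 and 11.25 in HFD-CO mice, and 10.89, 10.86, 10.91 and 11.01 in controls. It was the only member whose mean in HFD-ED was above that in control, by 0.02 (interval -0.24 to 0.29), and all 3 diets overlapped. A second Psmb10 probe (mean 10.56) gave -0.12 instead.

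Each immunoproteasome subunit was then set against the constitutive subunit whose place it takes, as the difference of their log2 levels in the same mouse. Such a difference can be compared between mice, although its absolute size carries no meaning because each probe has its own brightness. Psmb8 minus Psmb5 was 3.10, 2.87, 2.05 and 2.87 in HFD-ED mice, 3.29, 3.37, 3.20 and 3.52 in HFD-CO mice, and 2.86, 3.34, 2.94 and 2.92 in controls. All 4 HFD-ED mice lay below all 4 HFD-CO mice, with a difference of -0.62 (exact two-sided permutation test, p = 0.0286, the smallest that 4 against 4 mice can give, and 0.257 after Benjamini-Hochberg adjustment over the 9 tests). Without any 1 mouse this difference stayed between -0.75 and -0.40, the value nearest 0 being the one without HFD-ED replicate 3. HFD-CO was 0.33 above control (exact p = 0.0857, adjusted 0.386), and HFD-ED differed from control by -0.29 (exact p = 0.371, adjusted 0.72), which became -0.07 without HFD-ED replicate 3 and -0.19 without control replicate 2. The separation of the high fat diets in Psmb8 minus Psmb5 depended on the Psmb8 probe. The dimmer Psmb8 probe (mean 8.57) read 8.79 in HFD-ED replicate 1, beside 8.51 for Psmb5. In HFD-CO replicate 1 it read 8.82, beside 8.60 for Psmb5. By that probe this HFD-ED mouse lay above this HFD-CO mouse, and the diets overlapped. Psmb9 minus Psmb6 differed by -0.26 between HFD-ED and control (exact p = 0.4) and by -0.12 between HFD-ED and HFD-CO (exact p = 0.8286). Psmb10 minus Psmb7 differed by -0.01 (exact p = 0.971) and -0.14 (exact p = 0.657) in the same comparisons. With HFD-ED replicate 3 left out, these 4 differences were -0.04 and 0.10 for Psmb9 minus Psmb6 and 0.19 and 0.06 for Psmb10 minus Psmb7.

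**Figure D3:**
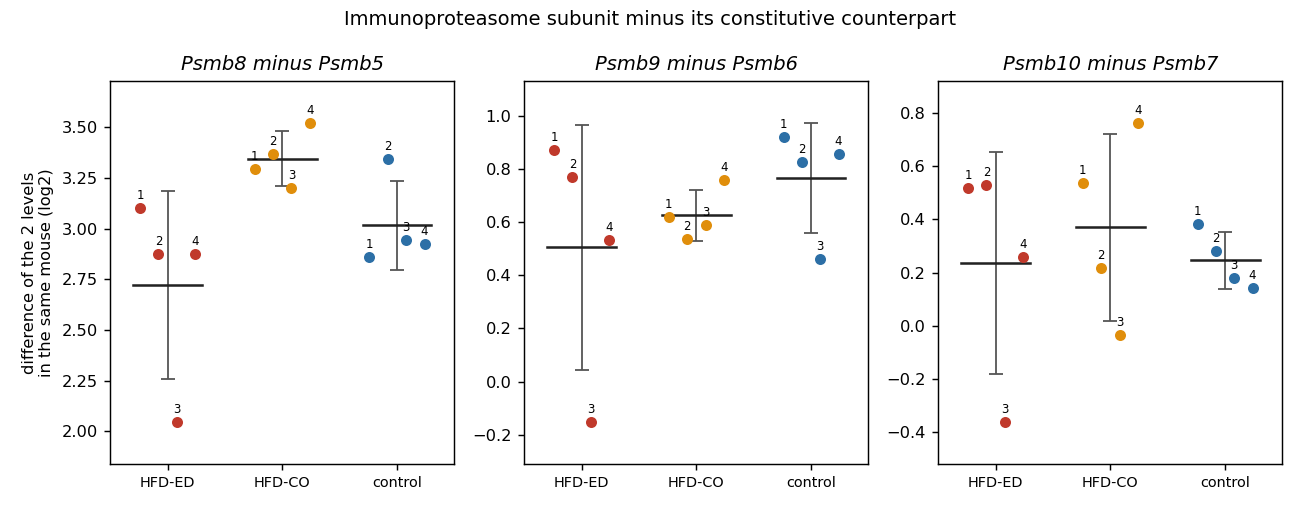
Log2 level of each immunoproteasome subunit minus that of its constitutive counterpart in the same mouse (vertical axis, own range per panel), for HFD-ED, HFD-CO and control fed mice numbered by replicate, with mean and SD (n = 4 each). Each gene is read by its brightest probe. For Psmb8 minus Psmb5 the HFD-ED mice (2.05 to 3.10) lie below the HFD-CO mice (3.20 to 3.52), while the mice overlap in the other pairs.

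Nlrc5, the transactivator of class I genes, was 9.47, 8.996, 8.85 and 9.25 in HFD-ED mice, 9.51, 9.46, 9.50 and 9.47 in HFD-CO mice, and 9.17, 9.61, 9.73 and 9.59 in controls. Its HFD-CO mice were nearly equal, whereas the 3 lowest HFD-ED mice lay below all of them and replicate 1 of the controls lay among the HFD-ED mice. The difference was -0.38 ± 0.14 (SE, interval -0.69 to -0.08) against control with an adjusted p of 0.403 (limma), and -0.34 ± 0.14 (-0.65 to -0.04) against HFD-CO with an adjusted p of 0.499. Leaving out HFD-ED replicate 3 gave -0.29 against control. Between HFD-CO and control it was -0.04 (-0.35 to 0.27).

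Of 21 measured regulators of class I genes (interferon factors, RFX, NF-Y and CREB proteins, interferon-gamma and its receptor path), none passed an adjusted p of 0.05 in any comparison. In HFD-ED, 17 were lower than control (median -0.08) and 15 were lower than HFD-CO (median -0.05). Of all probes, 52.8% and 52.4% were lower in these comparisons, and of those with a mean of at least 7.5, 58.8% and 57.9%. Means under 7.5 were found for 7 of the 21 regulators. Irf1, an interferon-induced transcription factor of class I and immunoproteasome genes, was 12.39, 12.22, 11.84 and 12.30 in HFD-ED mice, 12.53, 12.65, 12.56 and 12.55 in HFD-CO mice, and 12.43, 12.51, 12.47 and 12.53 in controls. All 4 HFD-ED mice lay below the 8 others, but Irf1 was named for the smallest p of its list. Of the probes with a mean of at least 7.5, 5.6% lay wholly below control in HFD-ED and 3.96% wholly below HFD-CO. The Irf1 difference was -0.38 ± 0.09 (SE, adjusted p = 0.345, limma) against HFD-CO and -0.29 ± 0.09 (adjusted p = 0.359) against control. Ciita, the relative of Nlrc5 that drives class II genes, differed by -0.32 between HFD-ED and control (adjusted p = 0.435). Ifng itself was near the lower end, between 7.14 and 7.25 in HFD-ED mice and between 7.27 and 7.33 in controls, and differed by -0.09 (adjusted p = 0.348).

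Within HFD-ED the mice were far from alike. The mean deviation of the 10 genes from their 12-mouse means was 0.05, -0.04, -0.48 and -0.04 in HFD-ED replicates 1 to 4. It lay between 0.01 and 0.11 in HFD-CO mice and between -0.01 and 0.09 in controls. Replicate 3 was the lowest of the 12 mice in 8 genes, and replicate 1 lay above the 12-mouse mean in 8 genes. By role, replicate 3 was lowest in the immunoproteasome subunits (-0.64), followed by Nlrc5 (-0.53), the class I chains (-0.50) and the transporter with tapasin (-0.28).

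**Figure D4:**
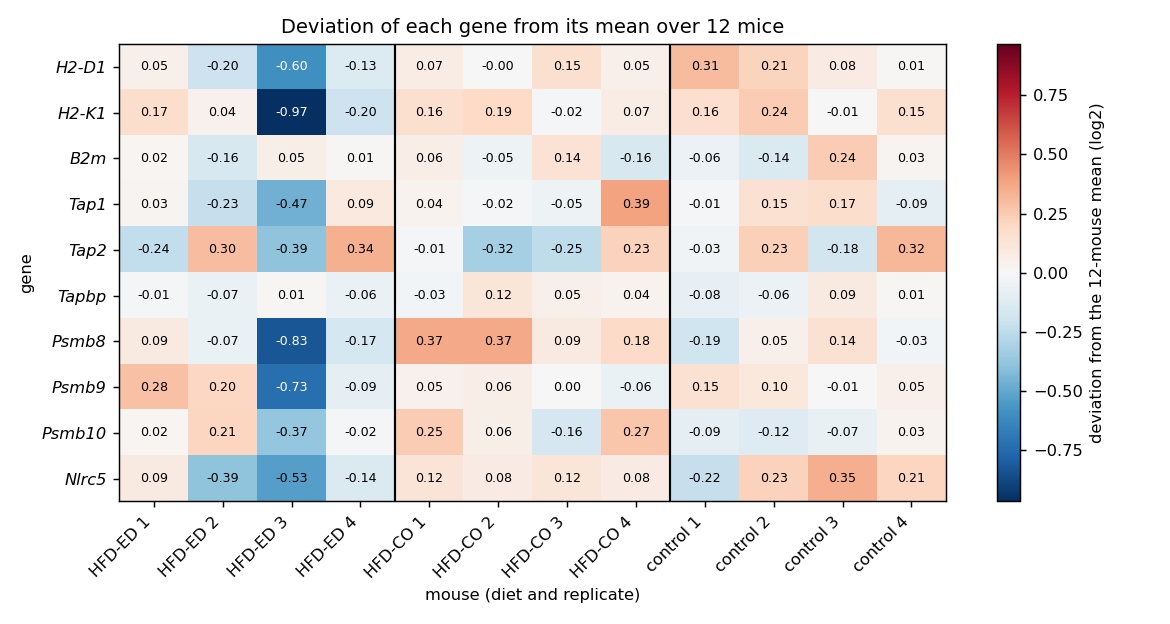
Deviation of each gene (rows) from its own mean over the 12 mice, in log2 units, for each mouse (columns, HFD-ED, HFD-CO and control from left to right); blue is below and red above the mean. HFD-ED replicate 3 is the darkest column, with -0.97 in H2-K1 and -0.83 in Psmb8, while B2m and Tapbp are near 0 there.

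Over the 12 mice, 16 of the 45 pairs of members correlated above r = 0.5 and the median r was 0.353, from -0.561 for Tap2 and Tapbp up to 0.932 for H2-K1 and Psmb9. Without HFD-ED replicate 3, 5 pairs did so and the median was 0.019. H2-K1 (r = 0.911), Psmb8 (0.86) and Psmb9 (0.781) followed the mean of the other 9 genes most closely, and B2m (-0.176), Tapbp (0.03) and Tap2 (0.236) least. These points share their arrays and normalization.

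The same mice also differed in the markers of spleen cell types, and in whole tissue fewer cells of a type cannot be told apart from less RNA per cell. T cell markers (9 of 12 listed were measured) deviated by between -0.44 and 0.11 in HFD-ED mice, between 0.02 and 0.13 in HFD-CO mice and between -0.10 and 0.07 in controls, and B cell markers (9 of 12) by between -0.42 and 0.05, between 0.01 and 0.11 and between 0.02 and 0.16. In both lists HFD-ED replicate 3 was the lowest mouse. Erythroid markers (12 of 14) ran the other way, between -0.44 and 1.26 in HFD-ED mice, against -0.65 to 0.32 in HFD-CO mice and -0.59 to 0.14 in controls, and neutrophil markers (10 of 10) reached 2.12 in HFD-ED replicate 3. The mean deviation of the 10 genes correlated over the 12 mice with that of the T cell list at r = 0.95, of the B cell list at 0.917, of the erythroid list at -0.765 and of the neutrophil list at -0.835. Without HFD-ED replicate 3 these were 0.741, 0.699, -0.64 and -0.467 over 11 mice. Megakaryocyte and platelet markers (8 of 8) lay between 0.05 and 0.76 in HFD-ED mice, above all 4 HFD-CO mice (-0.37 to -0.22) and all 4 controls (-0.18 to -0.03), and correlated with the 10 genes at r = -0.818, or -0.771 without that mouse. The dendritic cell (r = 0.762) and NK cell (0.742) lists also followed the 10 genes, at 0.332 and 0.419 without it. The part of these cell markers in the differences between diets was not tested.

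**Figure D5:**
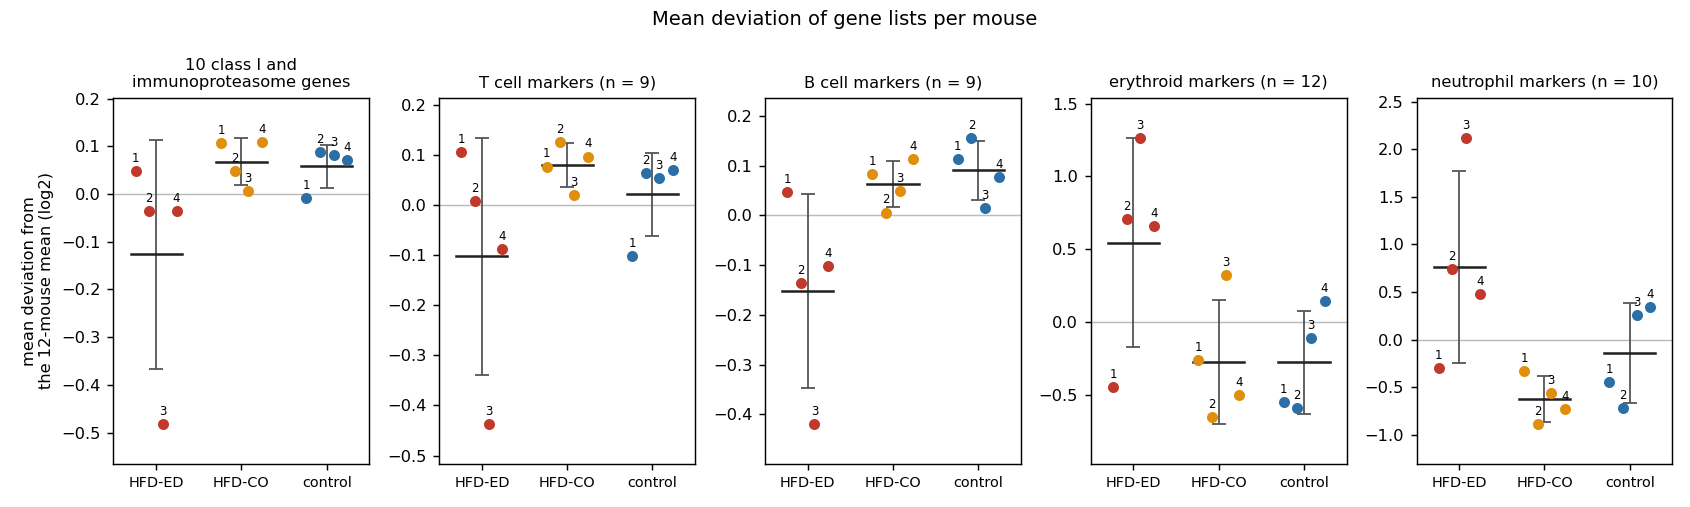
Mean deviation of the 10 genes and of 4 marker lists from their 12-mouse means (vertical axis, log2 units, own range per panel) in HFD-ED, HFD-CO and control fed mice numbered by replicate, with mean and SD (n = 4 each; n in the panel titles counts genes). HFD-ED replicate 3 is the lowest mouse for the 10 genes (-0.48), T cells (-0.44) and B cells (-0.42) and the highest for erythroid (1.26) and neutrophil (2.12) markers.

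Other genes around the pathway were described by list. Of 22 measured non-classical and related class I heavy chains, 17 were lower in HFD-ED than in control (median -0.07) and 14 lower than in HFD-CO (median -0.06), with none past an adjusted p of 0.05. Of all probes, 52.8% and 52.4% were lower in these comparisons (58.8% and 57.9% of those with a mean of at least 7.5). Means under 7.5 were found for 11 of the 22 genes. H2-M2 was 9.23, 9.02, 8.54 and 8.99 in HFD-ED mice, 9.46, 9.52, 9.61 and 9.83 in HFD-CO mice, and 9.65, 9.57, 9.47 and 9.57 in controls. The HFD-ED mice lay below all others, but H2-M2 was named for the smallest p of its list. Among probes with a mean of at least 7.5, 5.6% lay wholly below control in HFD-ED and 3.96% wholly below HFD-CO. H2-M2 differed by -0.66 ± 0.13 (SE) from HFD-CO (limma adjusted p = 0.330), a wider difference than any member showed. Cd1d1, which presents lipids to NKT cells, was between 8.69 and 9.20 in HFD-ED mice and between 9.25 and 9.70 in controls, a difference of -0.55 ± 0.14 (adjusted p = 0.276, limma). Mr1, which presents vitamin metabolites, was at the lower end and differed by -0.06 from HFD-CO.

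Among 11 measured genes of peptide trimming and loading, 7 were lower in HFD-ED than in control (median -0.02) and 5 lower than in HFD-CO (median 0.00). Of all probes, 52.8% and 52.4% were lower in these comparisons, and 4 of the 11 genes had means under 7.5. Tapbpl, the tapasin relative that edits peptides on class I, was between 7.93 and 8.37 in HFD-ED mice and between 8.44 and 8.63 in HFD-CO mice. The difference was -0.28 ± 0.09 (adjusted p = 0.454, limma), but Tapbpl was named for the smallest p of its list. Of the probes with a mean of at least 7.5, 3.96% lay wholly below HFD-CO in HFD-ED. Sec61b, a subunit of the translocon, differed by 0.15 and Nrd1, a peptidase, by -0.12 between HFD-ED and control. Of the 9 genes of the proteasome activator and of proteasome assembly, 5 were lower in HFD-ED than in control (median -0.02) and 3 lower than in HFD-CO (median 0.05). The interferon-induced PA28 subunits were on the lower side in HFD-ED. Psme1 differed by -0.26 from control (limma adjusted p = 0.472) and by -0.26 from HFD-CO. Psme2 differed by -0.07 from control and by -0.14 from HFD-CO (adjusted p = 0.524). Psme3 of the same list was on the higher side, by 0.42 against control (adjusted p = 0.574) and 0.46 against HFD-CO (adjusted p = 0.586). The assembly chaperone Psmg3 was also on the higher side, by 0.23 against control (adjusted p = 0.439). All 4 measured catalytic subunits outside the immunoproteasome were above control in HFD-ED, with a median of 0.05, among them Psmb6 by 0.10, and Psmb5 differed by 0.13 and the thymus subunit Psmb11, at the lower end, by 0.04 from HFD-CO.

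On the side of the cells that read class I, 13 of 15 measured genes were lower in HFD-ED than in control (median -0.12) and 13 lower than in HFD-CO (median -0.08). Of all probes, 52.8% and 52.4% were lower in these comparisons (58.8% and 57.9% of those with a mean of at least 7.5). Means under 7.5 were found for 8 of the 15 genes. Klra3, a Ly49 receptor, was 7.73, 7.86, 7.76 and 7.80 in HFD-ED mice, 7.99, 8.06, 7.93 and 8.08 in HFD-CO mice, and 8.19, 8.10, 8.06 and 8.16 in controls. All 4 HFD-ED mice lay below the 8 others, but Klra3 was named for the smallest p of its list. Of the probes with a mean of at least 7.5, 5.6% lay wholly below control in HFD-ED and 3.96% wholly below HFD-CO. The Klra3 difference of -0.34 ± 0.04 (SE) from control had an adjusted p of 0.071 by limma. The NK cell marker Klre1 had the same adjusted p in that comparison, with a difference of -0.29 ± 0.03, and no probe had a smaller one. It was picked for that value: of the 8 measured NK cell markers, 6 were lower and 2 higher in HFD-ED than in control. Klra4 differed by -0.45 ± 0.11 (adjusted p = 0.265) and Klra10 by -0.14 (adjusted p = 0.344) between the same diets. The Ly49 genes are near copies of each other, so their probes may not separate them.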

How the data were processed

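Spleen RNA of 12 mice was hybridised to MouseWG-6 v2.0 BeadChips. The authors extracted the bead signals with GenomeStudio and ran lumiExpresso (lumi 2.18.0 per the submitters' processing notes) with quantile normalization and a variance-stabilizing transformation; the deposited values are the resulting log2 levels, 1 column per mouse, and were used as deposited. Because the transformation compresses low levels, differences of dim probes understate the change. Probes carried gene symbols from the platform annotation: 34885 had 1 symbol, 18 several and 10378 none.

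Diets were compared over all 45281 probes and all 12 arrays with limma 3.58.1 (R 4.3.3, lmFit, eBayes, two-sided). Benjamini-Hochberg adjustment ran over all probes, with a threshold of 0.05. The study's methods used 0.001, which 0 probes passed here. At that cutoff the paper reports differentially expressed genes for both high fat diets against control, and the reason for this disagreement was not tested. The subunit pairs were tested by exact permutation over mice, 70 regroupings each. The fit was also run on simulated data in which each probe varied independently, which cannot show how it behaves when probes move together. Promoter windows came from RefSeq (GRCm38.p6), searched with Python 3.11.15 and aligned with Biopython 1.88. The precision is limited by the number of mice, 4 per diet.

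The 10 genes were taken by symbol and not by value, but they, the lists and the motifs were chosen with earlier results of these data known. Named were all 10 genes, up to 3 genes per related list with the smallest p in HFD-ED against control or HFD-CO, and the 5 genes most and least like the 10. Also named, outside that rule, were Klre1 for its adjusted p, Psme3 for its difference in the other direction, and a few tissue markers. No 2 arrays held identical values. Across diets, 4 of 12 same-numbered pairs of mice deviated together at r over 0.1. Among them were the replicate 3 mice, at 0.371 (HFD-ED and HFD-CO), 0.156 (HFD-ED and control) and 0.162 (HFD-CO and control). The labels do not say whether mice of the same number shared a chip or a run, and this was not tested. Alternatives were other normalizations, a replicate block, variance trends, array weights, a filter on dim probes, other ways to choose probes, and leaving out each mouse.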

Additional observations from a re-analysis of the deposited data

Results flagged for a closer look

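Of the 30 sets of 4 mice (10 genes in 3 diets) searched for a mouse far from the rest, 0 passed Dixon's 95% critical value for 4 values.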

How the results depend on the processing

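No member passed an adjusted p of 0.05 under any alternative, the replicate block included (0 members in each comparison). The lowest adjusted p of a member was 0.0817, for H2-D1 between HFD-ED and control without HFD-ED replicate 1 (0.344 with all mice, up to 0.641 under the others). With the replicate block, limma called 0 probes between HFD-ED and HFD-CO, where 1 was called without it. That count was also 0 with a variance trend, with dim probes left out, with only the diets compared and with the 3 comparisons adjusted together, it was 7 with a robust variance trend, and it ran from 0 to 46 with 1 mouse left out. Between HFD-ED and control the count was 8 with a robust variance trend, 3 with 1 probe per gene, 3 with the mean over all probes of a gene, and 0 to 87 with 1 mouse left out; the counts of 46 and 87 are those without HFD-ED replicate 1. Causes were not tested.

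The median difference of the 10 genes stayed between -0.18 and -0.15 (HFD-ED against control) and between -0.19 and -0.15 (HFD-ED against HFD-CO) with all mice, and between -0.27 and -0.05 and between -0.25 and -0.09 with 1 mouse left out. For HFD-CO against control it lay between -0.03 and 0.01, and between -0.04 and 0.04 with 1 mouse left out.

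Of the alternative values for single genes and subunit pairs, 771 kept their direction and 27 changed sign. Those of single genes that kept it also kept their side of the threshold, while the pairs were checked for direction only. Averaging all probes of a gene turned Tapbp to 0.0151 and Psmb10 to -0.048 (HFD-ED against control) and B2m to 0.0526 (HFD-CO against control). With 1 mouse left out, the ranges that crossed 0 were, for HFD-ED against control, B2m -0.0882 to 0.0392, Tap2 -0.195 to 0.0497, Tapbp -0.0449 to 0.0124, Psmb9 -0.280 to 0.0579 and Psmb10 -0.0616 to 0.131. For HFD-CO against control they were H2-K1 -0.0849 to 0.0044, B2m -0.0712 to 0.0562, Tap1 -0.0668 to 0.0804 and Nlrc5 -0.160 to 0.0293. For HFD-ED against HFD-CO they were B2m -0.0686 to 0.0295, Tap2 -0.0212 to 0.224 and Psmb9 -0.219 to 0.119. Leaving out mice, added after seeing the data for the subunit pairs, gave -0.242 to 0.0986 for Psmb9 minus Psmb6 (HFD-ED against HFD-CO), and for Psmb10 minus Psmb7 -0.108 to 0.188 (HFD-ED against control), -0.0063 to 0.259 (HFD-CO against control) and -0.270 to 0.0638 (HFD-ED against HFD-CO). Probes near the lower end of the scale, Tapbp among the 10 genes, limit what can be said of them.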

Other observations

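Genes whose levels over the 12 mice were most like the mean of the 10 genes were sought among 4994 genes with a mean level of at least 8, as a description without a test. The 5 highest were LOC100041504 (r = 0.977), the T zone chemokine Ccl21a (0.97), the T cell receptor kinase Zap70 (0.959), the kinase Map4k1 (0.955) and the TNF receptor adaptor Traf1 (0.949). With HFD-ED replicate 3 left out, a choice made after seeing the data, these were 0.751, 0.685, 0.665, 0.485 and 0.827 over 11 mice. The 5 lowest were the histamine-forming enzyme Hdc (r = -0.972), Golm1 (-0.953), C730029A08Rik (-0.941), the glycogen phosphorylase Pygl (-0.94) and the histone gene H3f3a (-0.939), and without that mouse they were -0.737, -0.678, -0.894, -0.67 and -0.659. With each diet's mean taken away, LOC100041504 (0.97), the T cell surface protein Cd6 (0.963), Map4k1 (0.961), Ccl21a (0.958) and Zap70 (0.95) were highest, and Hdc (-0.965), the platelet lipoxygenase Alox12 (-0.962), Ubl5 (-0.951), Golm1 (-0.937) and Cdk8 (-0.934) lowest. With the diet means kept, r for Cd6, Alox12, Cdk8 and Ubl5 was 0.935, -0.878, -0.911 and -0.571 over 12 mice, and 0.46, -0.734, -0.436 and 0.206 without HFD-ED replicate 3, so that the sign of Ubl5 changed. All points share their arrays and normalization.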
